A study of Homo sapiens with 9 samples.

Results

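The genes described here belong to 7 families of ubiquitin ligases and deubiquitinases in Caki-1, a human cell line derived from a clear cell renal cell carcinoma. They were taken from a deposited table of transcripts by gene name: every symbol made of USP, RNF, TRIM, FBXO, FBXW, FBXL, UBR, HERC or CUL and a digit, except genes that the table assigns to the KEGG pathways of protein processing in the endoplasmic reticulum or of the cell cycle. The rule found 140 of the 6819 listed genes, and 468 of the 20909 listed transcripts. By name alone 142 genes would have entered, and the pathway exclusion removed 2 of them, CUL1 and RNF185. The rule itself reads names and pathways and no measured value. The table it was applied to had been selected by values, as described below. The members were also chosen with earlier results of these data known.

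The study knocked down TAF1D, a subunit of the factor that recruits RNA polymerase I to ribosomal RNA genes, with short hairpin RNA, and asks about its function in this carcinoma. RNA was sequenced in 9 libraries: 3 labelled SH3, 3 labelled SH1 and 3 controls. The SH3 and SH1 libraries carry a TAF1D knockdown in Caki-1 and the controls are labelled WT, and all 9 share the cell line. The labels do not define SH1 and SH3 and name neither the control vector, nor the number of clones, nor whether the replicates are separate cultures, so the p-values measure only the spread between these libraries, which may be technical.

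Ubiquitin is passed from an activating enzyme to a conjugating enzyme and, with the help of a ligase, to a target protein, and a chain of ubiquitin can send that protein to the proteasome. The ligase chooses the target: most RNF and TRIM proteins carry a RING domain, HERC proteins carry a HECT domain, UBR proteins read destabilising N-termini, and cullins are scaffolds onto which F-box proteins (FBXO, FBXW, FBXL) and other adaptors bring targets. USP enzymes remove ubiquitin again. In clear cell renal carcinoma the system is known above all for VHL, the substrate receptor of a cullin ligase, whose loss stabilises the hypoxia-inducible factors.

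Each library holds 1358215 to 1596467 estimated counts in the table, a part that covers 4.20% to 5.18% of its TPM. Every one of the 20909 transcripts differs at least 2-fold in estimated count between SH1 1 and control 1, so the table had been selected. These 2 libraries are therefore more extreme than the other 7, and results without them are given as values of the other 7 libraries. TAF1D is not among the listed genes, so the loss of the target was not checked. Of the markers looked for, 2 of 10 of renal epithelium or carcinoma were listed (PAX8 and KRT19), 1 of 6 of fibroblasts (PDGFRB, at 0.16 to 0.34 FPKM), and 0 of 4 of endothelium and 0 of 5 of blood. A marker could be listed only if a transcript of it differed at least 2-fold between SH1 1 and control 1. Being listed or not therefore does not show which cells were present. The summed PAX8 and KRT19 level was 63.2 to 76.5 FPKM in SH3, 22.0 to 26.8 FPKM in SH1 and 72.4 to 92.6 FPKM in control libraries, so SH1 stood below both other groups. The selection favours a gap between SH1 and control, and the sum does not show which of the 2 genes differed. Whether fewer cells of a kind or less RNA per cell lies behind a lower value cannot be told apart in bulk RNA.

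The 140 genes comprise 38 USP genes, 31 RNF, 30 F-box, 26 TRIM, 6 CUL, 5 HERC and 4 UBR genes. Of their 468 transcripts, 241 have curated RefSeq names and 227 predicted ones. A single transcript was listed for 40 genes and several for 100, with up to 22 for USP19. In 86 genes some transcripts were higher and others lower in SH1 1 than in control 1, so that a gene's sum can be flat while its transcripts are not. Symbols do not guarantee function: USP6NL is a GTPase-activating protein, USP39 lacks deubiquitinase activity, and RNF103-CHMP3 and TRIM39-RPP21 are readthrough genes. Reads can be shared between USP6 and USP32, between TRIM16 and TRIM16L, and between TRIM39 and TRIM39-RPP21, so values of these genes are uncertain. The table's own annotation places 51 of the 140 genes under ubiquitin-protein transferase activity, 38 under protein deubiquitination, 25 in the SCF ligase complex, 14 under innate immune response and 14 under DNA repair.

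Levels below are FPKM, that is fragments scaled to transcript length and library size, summed over the listed transcripts of a gene. They describe the listed transcripts and not the whole gene. The mean over 9 libraries had a median of 1.31 FPKM among the 140 genes, against 1.34 FPKM among all 6819. A mean of at least 1 FPKM was reached by 75 genes, of at least 5 FPKM by 18 and of at least 10 FPKM by 5. These 5 were USP22, which removes ubiquitin from histone H2B in the SAGA complex, FBXO7, a substrate receptor of SCF ligases, USP16, which acts on histone H2A, the deubiquitinase USP13, and RNF167, a RING ligase of endosomes and lysosomes.

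**Figure D1:**
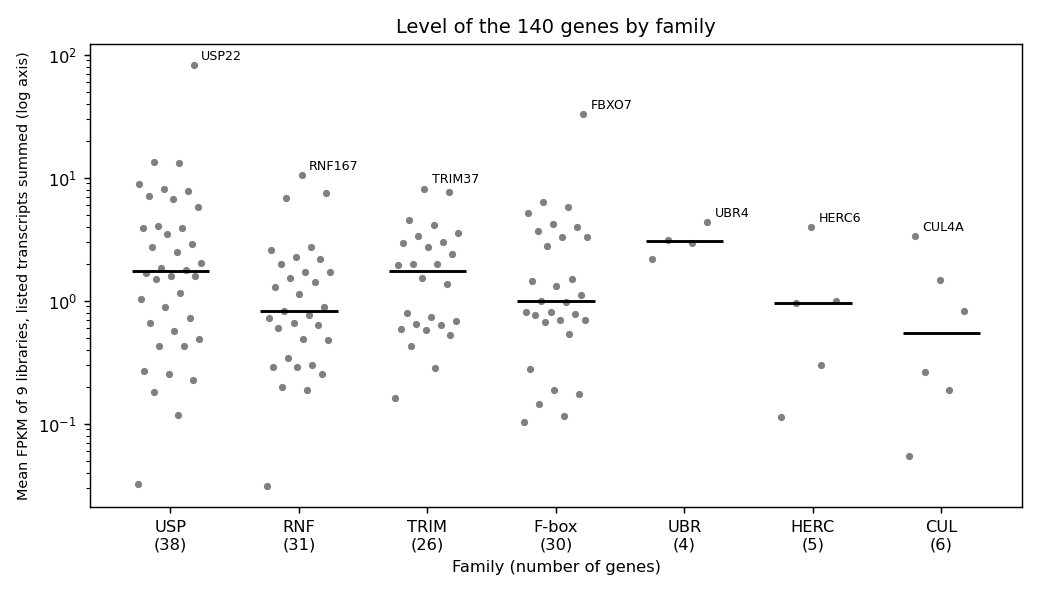
Mean FPKM over 9 libraries of the 140 genes by family, on a log axis; each point is a gene, the black line is the family's median, and the gene with the highest level in each family is named. USP22 stands highest at 82.7 FPKM, followed by FBXO7 at 33.0 FPKM.

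USP22 had 75.65, 78.61 and 77.65 FPKM in SH3, 90.29, 86.23 and 92.04 FPKM in SH1, and 84.37, 86.21 and 72.86 FPKM in control libraries. The SH1 libraries lay above both other groups, over the highest control by the narrow gap between SH1 2 and control 2, and SH3 and control overlapped. In the fit of summed counts SH1 did not stand apart from control, with a log2 fold change of -0.0038 ± 0.10 (SE; edgeR adjusted p = 0.999). It was -0.15 ± 0.10 in SH3 against SH1 and -0.15 ± 0.10 in SH3 against control, and passed the test in neither (adjusted p = 0.776 and 0.828). USP16 averaged 12.5 ± 0.712 FPKM in SH3, 13.9 ± 2.46 in SH1 and 13.9 ± 2.96 in control libraries (SD, n = 3 each), with overlap between all groups. USP13 averaged 11.1 ± 1.31 FPKM in SH3, 14.3 ± 1.32 in SH1 and 14.0 ± 2.79 in control libraries, without a call in any comparison.

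SH1 against control compares 1 of the knockdown groups with the controls. FBXO7 and FBXO10, both F-box receptors, were lower in SH1, and no other gene of the 7 families passed the threshold. The edgeR quasi-likelihood test called 2 of 136 tested genes at an adjusted p under 0.05, which is 1.47%, against 2.14% of all 6398 genes tested. FBXL13, FBXO9, HERC4 and RNF152 had too few counts to be tested. For 21 genes, 15.4% of those tested, the FPKM of the 2 groups had no overlap and differed in the direction of the fit, against 20.1% of all genes. The median log2 fold change was -0.06 over the 136 genes and -0.03 over all genes, with 64 genes above 0 and 72 below. With the authors' own scaling factors the split was 74 above and 62 below and the median 0.05, so the families as a whole have no direction that holds across scalings.

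FBXO7, whose product is known from SCF ligases, from the clearance of mitochondria with PINK1 and parkin, and from a hereditary form of parkinsonism, had 46.27, 40.12 and 48.53 FPKM in SH3, 11.92, 16.74 and 14.31 FPKM in SH1, and 41.72, 45.15 and 32.49 FPKM in control libraries. All 3 SH1 libraries lay below the 6 others, while SH3 and control overlapped. The log2 fold change was -1.61 ± 0.21 (SE) in SH1 against control (edgeR adjusted p = 0.0078). In SH3 against control it was 0.08 ± 0.20 (adjusted p = 0.999). Tested directly, SH3 stood above SH1 by 1.69 ± 0.21 on the log2 scale (adjusted p = 0.00799). In the other 7 libraries the fold changes kept their size, at -1.43 in SH1 against control and 1.52 in SH3 against SH1, with adjusted p of 0.0675 and 0.0552. The SH1 libraries are also those with the low summed PAX8 and KRT19 level given above, whose part in the result was not tested.

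Of the 4 listed transcripts of FBXO7, 3 were lower and 1 higher in SH1 1 than in control 1. The higher one is a predicted transcript whose values are not given here. Both curated transcripts of FBXO7 were lower in SH1. NM_012179, the most abundant, had 27.02, 23.13 and 31.06 FPKM in SH3, 8.3, 11.74 and 11.4 FPKM in SH1, and 26.54, 31.58 and 21.33 FPKM in control libraries. NM_001033024 had 7.46, 7.8 and 7.12 FPKM in SH3, was listed at 0 in SH1 1 and SH1 3 with 1.15 FPKM in SH1 2, and had 3.42, 9.06 and 5.54 FPKM in control libraries. Neither transcript passed the test by itself: NM_012179 had a log2 fold change of -1.44 ± 0.31 in SH1 against control (edgeR adjusted p = 0.236 over 17495 transcripts) and NM_001033024 one of -4.04 ± 1.83 (adjusted p = 0.636). The predicted transcript XM_024452207 had 11.79, 7.49 and 0 FPKM in SH3, 2.01, 3.85 and 2.91 FPKM in SH1, and 11.76, 4.51 and 5.62 FPKM in control libraries, so SH1 was below control but SH3 spanned both.

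FBXO10, a receptor known for directing the apoptosis regulator BCL2 to degradation, is represented by the single predicted transcript XM_017014619. It had 0.21, 0.2 and 0.18 FPKM in SH3, was listed at 0 in all 3 SH1 libraries, and had 0.22, 0.37 and 0.4 FPKM in control libraries. Behind these values stand 56.1 estimated counts in SH3 and 94.2 in control libraries, each summed over 3 libraries. With SH1 set to 3 counts over the group, FBXO10 was at least 33.2-fold lower in SH1 than in control (edgeR adjusted p = 0.0405) and at least 19.3-fold higher in SH3 than in SH1 (adjusted p = 0.068). These bounds cover counting error only. In the other 7 libraries the adjusted p was 0.111 in SH1 against control.

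The RefSeq promoters of these called genes, from 250 bases before to 50 bases after the annotated start in GRCh38.p14, are shown because both genes fell in SH1; capitals mark CpG dinucleotides. The FBXO7 window lies at chr22:32474561-32474860 on the plus strand and that of FBXO10 at chr9:37576331-37576630 on the minus strand. The listed transcripts may start elsewhere, and the deposited table gives no positions.
FBXO7: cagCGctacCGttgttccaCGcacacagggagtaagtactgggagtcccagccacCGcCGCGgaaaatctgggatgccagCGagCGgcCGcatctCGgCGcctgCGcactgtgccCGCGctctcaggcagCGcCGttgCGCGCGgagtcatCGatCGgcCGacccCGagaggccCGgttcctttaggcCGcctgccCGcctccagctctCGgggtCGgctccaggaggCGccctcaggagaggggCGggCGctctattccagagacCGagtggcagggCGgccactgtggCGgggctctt
FBXO10: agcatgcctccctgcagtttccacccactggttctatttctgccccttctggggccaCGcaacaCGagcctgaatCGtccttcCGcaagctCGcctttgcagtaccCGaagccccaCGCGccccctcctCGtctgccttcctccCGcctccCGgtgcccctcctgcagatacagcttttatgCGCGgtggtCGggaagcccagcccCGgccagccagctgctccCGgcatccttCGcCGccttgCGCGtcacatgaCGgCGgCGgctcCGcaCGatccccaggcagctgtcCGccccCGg
The FBXO7 window is 70% G or C with 34 CpG, and that of FBXO10 67.7% with 27 CpG, against medians of 67.7% and 28 CpG in the 109 promoters matched to the families and 58.3% and 14 CpG in all 27305 promoters of the table. The TATA box letters TATAAA, the E-box letters CACGTG and the ETS letters CCGGAAG were searched on both strands, without overlap among them, and had 0 matches in either window. Of all promoters 12% hold TATAAA, 7.43% CACGTG and 10.7% CCGGAAG. Of the 109 promoters of the families 5.5% hold TATAAA, 10.1% CACGTG and 23.9% CCGGAAG. These are matches of letters and not binding sites.

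**Figure D2:**
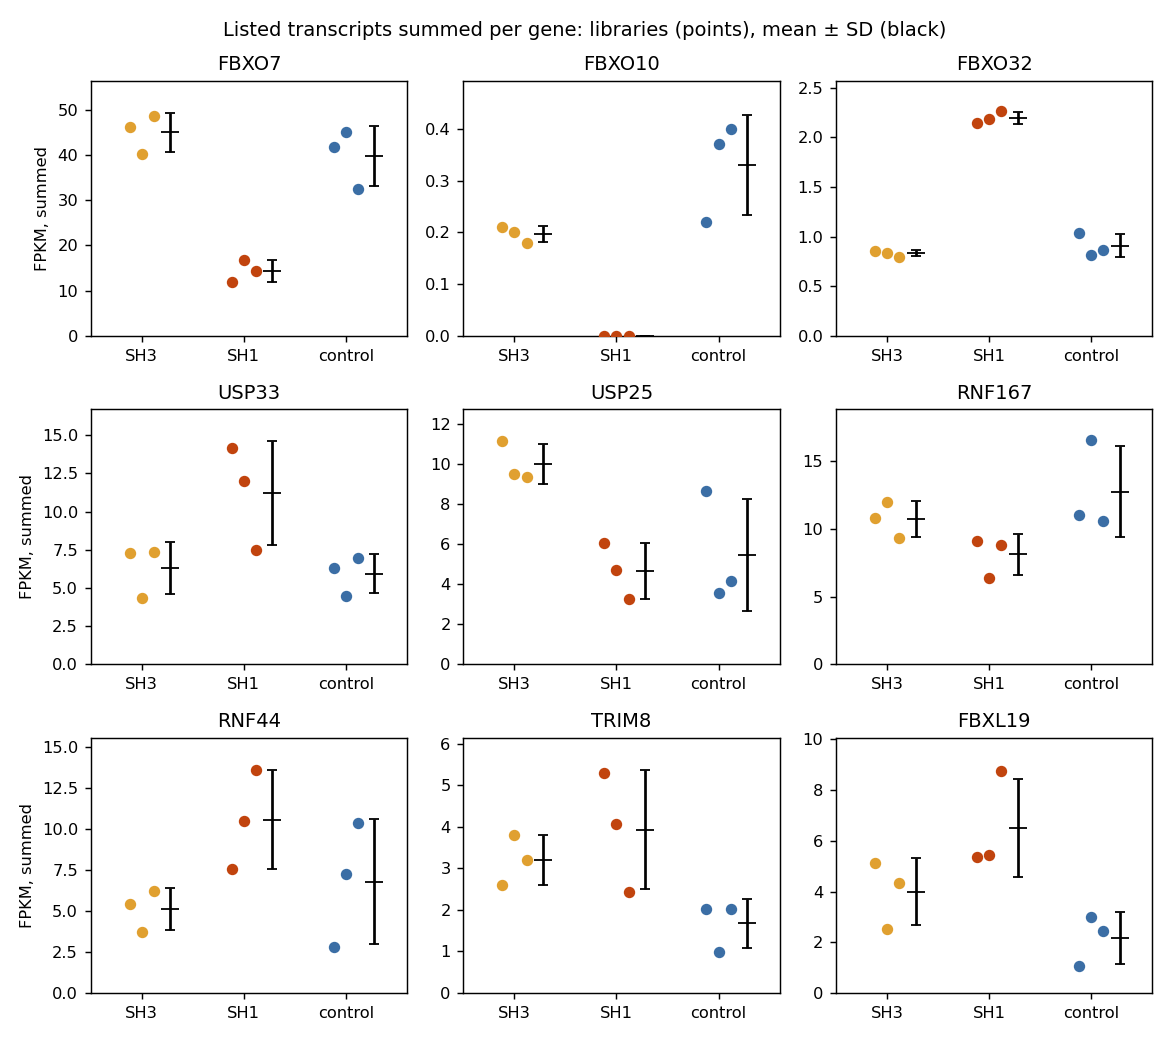
Summed FPKM of 9 genes in each library (points; SH3, SH1 and control from left to right) with the mean ± SD of 3 libraries in black; each panel has its own axis from 0. FBXO7 and FBXO10 are low in the 3 SH1 libraries, and FBXO32 is high there at 2.14 to 2.26 FPKM.

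Further genes had an unadjusted p under 0.05 in SH1 against control without passing the adjusted threshold: of 12 in all, 8.82% of the genes tested against 11.5% of all genes, 6 were higher and 6 lower (4.41% each, against 5.5% and 6% of all genes). Higher were FBXO32, FBXL19, TRIM8, USP33, RNF7 and RNF40, and lower, besides FBXO7 and FBXO10, were RNF167, USP12, FBXW8 and TRIM37. DESeq2 called 5 genes, 3.68%, adding FBXO32, RNF167 and USP12 to FBXO7 and FBXO10, against 6.81% of all genes. The limma test called 1, FBXO7, against 2.55% of all genes.

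RNF167 had 10.78, 11.99 and 9.36 FPKM in SH3, 9.12, 6.4 and 8.82 FPKM in SH1, and 11.05, 16.59 and 10.6 FPKM in control libraries. SH1 lay below both other groups without overlap, with a log2 fold change of -0.91 ± 0.27 against control (edgeR adjusted p = 0.194). One of its 6 listed transcripts, NM_001370313, was at 0 in all SH1 libraries and had 0.55, 10.18 and 5.82 FPKM in controls. USP12, which works with the activator WDR48, had 0.94, 2.12 and 2.16 FPKM in SH3, 0.7, 0.88 and 0.63 FPKM in SH1, and 6.49, 1.73 and 1.11 FPKM in control libraries. Its log2 fold change of -2.21 ± 0.67 in SH1 against control (adjusted p = 0.215) was -1.07 in the other 7 libraries, since control 1 was the highest of all 9.

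USP33, a deubiquitinase known to bind VHL, had 7.28, 4.33 and 7.35 FPKM in SH3, 14.19, 12.04 and 7.52 FPKM in SH1, and 6.33, 4.5 and 6.95 FPKM in control libraries. SH1 3 was close to the other groups, although no SH1 library fell below them. The log2 fold change was 0.79 ± 0.31 in SH1 against control and -0.76 ± 0.31 in SH3 against SH1 (edgeR adjusted p = 0.386 and 0.422). FBXL19, an F-box protein that binds CpG islands, had 5.14, 2.53 and 4.33 FPKM in SH3, 5.38, 5.43 and 8.76 FPKM in SH1, and 1.05, 3.01 and 2.45 FPKM in control libraries. SH1 stood above both groups, with a log2 fold change of 1.40 ± 0.47 against control (adjusted p = 0.287).

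FBXW8, the F-box partner of CUL7, and TRIM8, a RING ligase of inflammatory signalling, were the genes with at least 1 FPKM whose 6 knockdown libraries all lay on 1 side of the controls. TRIM8 had 2.61, 3.81 and 3.2 FPKM in SH3, 5.29, 4.06 and 2.43 FPKM in SH1, and 2.02, 0.99 and 2.01 FPKM in control libraries. The average of SH3 and SH1 was 0.98 ± 0.36 above control on the log2 scale (edgeR adjusted p = 0.392). FBXW8 had 3.98, 2.44 and 4.64 FPKM in SH3, 2.63, 3.76 and 3.58 FPKM in SH1, and 4.75, 4.7 and 5.63 FPKM in control libraries. Its average difference was -0.65 ± 0.25 (adjusted p = 0.407).

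In the average of both knockdown groups against control, edgeR called 0 of the 136 genes, against 1.11% of all genes, and 11 had an unadjusted p under 0.05 (8.09%, against 10.2% of all genes). DESeq2 called 3 (FBXO7, FBXO10 and RNF7), against 5.15% of all genes, and limma 0, against 1.55%. Libraries were apart for 6 genes, 4.41%, against 6.33% of all genes. RNF7, the RING subunit that pairs with CUL5, had 0.95, 0.69 and 1.14 FPKM in SH3, 1.15, 1.77 and 0.42 FPKM in SH1, and 0.32, 0.26 and 0.22 FPKM in control libraries. All 6 knockdown libraries were above the controls, and the average log2 difference was 1.81 ± 0.68 (edgeR adjusted p = 0.395).

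SH3 against control gave no call: edgeR called 0 of 136 genes, against 0.406% of all genes, with 5 at an unadjusted p under 0.05 (3.68%, against 8.39% of all genes). DESeq2 called 2, USP37 among them, against 3.64% of all genes, and limma 0, against 0.875%. The libraries did not overlap for 16 genes, 11.8%, against 17.3% of all genes, and the median log2 fold change was -0.02, against -0.03 over all genes.

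USP37, a deubiquitinase of cell cycle proteins, had 0.07, 0 and 0.11 FPKM in SH3, 1.47, 0.32 and 1.11 FPKM in SH1, and 0.51, 0.89 and 1.45 FPKM in control libraries. Its log2 fold change was -4.04 ± 1.23 in SH3 against control (edgeR adjusted p = 0.37), summed over 5 predicted transcripts. RNF216, a RING ligase, likewise had 0.06, 0 and 0.33 FPKM in SH3, 1.23, 0.53 and 2.62 FPKM in SH1, and 2.32, 2.63 and 0.51 FPKM in control libraries, with a log2 fold change of -3.78 ± 1.43 (adjusted p = 0.525). USP25, a deubiquitinase of TRAF signalling proteins, had 11.13, 9.49 and 9.34 FPKM in SH3, 6.03, 4.72 and 3.24 FPKM in SH1, and 8.65, 3.55 and 4.17 FPKM in control libraries. SH3 was above both groups, by 0.80 ± 0.34 against control (adjusted p = 0.579), and control 1 alone came near it: in the other 7 libraries the difference was 1.24.

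The other genes that the rule picked in SH3 against control had smaller differences. RNF19B, TRIM6 and USP18, which removes the ubiquitin-like ISG15, were above control without overlap, by 0.91 ± 0.67, 0.30 ± 0.30 and 0.65 ± 0.57 on the log2 scale. TRIM39 was below, by -0.79 ± 0.49. The edgeR adjusted p of these 4 genes was between 0.778 and 0.986.

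SH3 against SH1 compares the 2 knockdown groups directly. FBXO7 was higher in SH3, as given above, and FBXO32 was lower. The test called these 2 of 136 genes, 1.47%, against 1.36% of all genes, with 11 at an unadjusted p under 0.05 against 10.8% of all genes. The libraries did not overlap for 29 genes, 21.3%, against 22.3% of all genes. DESeq2 called 4, adding FBXO10 and USP37, against 6.26% of all genes, and limma called 1, FBXO7, against 2.14%.

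FBXO32, also called atrogin-1 and known from muscle wasting, is represented by the curated transcript NM_058229. It had 0.86, 0.84 and 0.8 FPKM in SH3, 2.14, 2.18 and 2.26 FPKM in SH1, and 1.04, 0.82 and 0.87 FPKM in control libraries. The SH1 libraries lay above the 6 others, which overlapped among themselves. The log2 fold change was -1.31 ± 0.24 in SH3 against SH1 (edgeR adjusted p = 0.0455). In SH1 against control it was 1.11 ± 0.24 (adjusted p = 0.063) and in SH3 against control -0.20 ± 0.23 (adjusted p = 0.999). In the other 7 libraries the difference between SH3 and SH1 was -1.39 with an adjusted p of 0.0934. Fitted as a transcript among 17495, it did not pass in any comparison.

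RNF44 and RNF207, RING proteins, were lower in SH3 than in SH1 without overlap but did not pass the test. RNF44 had 5.43, 3.75 and 6.21 FPKM in SH3, 7.6, 10.53 and 13.62 FPKM in SH1, and 2.78, 7.26 and 10.38 FPKM in control libraries, a log2 difference of -0.97 ± 0.43 between SH3 and SH1 (edgeR adjusted p = 0.476). RNF207 averaged 6.23 ± 0.395 FPKM in SH3, 8.32 ± 1.06 in SH1 and 5.88 ± 0.214 in control libraries (SD, n = 3 each). RNF213, a giant RING ligase linked to moyamoya disease, had 0.94, 0.9 and 1.06 FPKM in SH3, 1.59, 1.95 and 1.97 FPKM in SH1, and 0.46, 1.48 and 1.35 FPKM in control libraries, with a log2 difference of -0.85 ± 0.42 (adjusted p = 0.552).

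**Figure D3:**
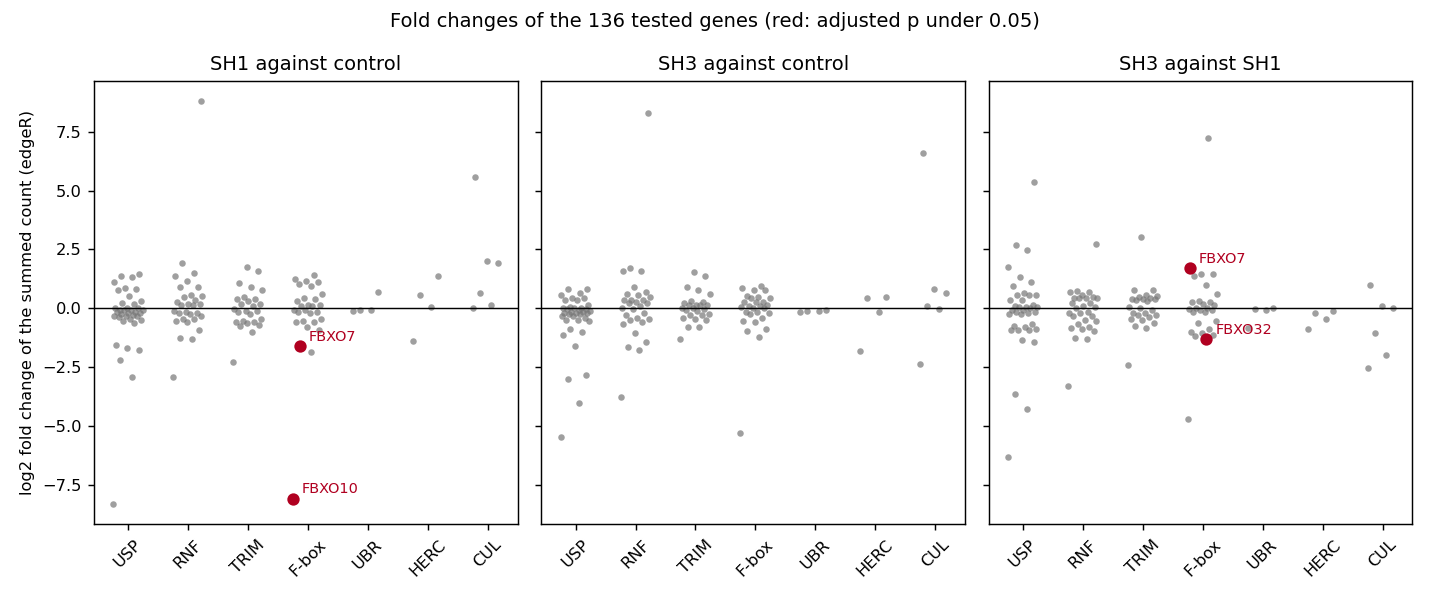
Log2 fold changes (edgeR) of the 136 tested genes by family in 3 comparisons; each point is a gene, and red points had an adjusted p under 0.05. Called genes are F-box genes in both comparisons that have any: FBXO7 and FBXO10 in SH1 against control, FBXO7 and FBXO32 in SH3 against SH1; the most extreme grey points are genes at 0 in a group.

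Among families, the USP genes were the most numerous. In SH1 against control 26 of 38 had a log2 fold change below 0, with a median of -0.16, and in SH3 against control 25 of 38, with a median of -0.17. With the authors' scaling factors 21 and 23 of 38 were below 0. In the other 7 libraries 20 of 37 tested were below 0 in SH1 against control and 19 of 37 in SH3 against control. The edgeR test called 0 USP genes in every comparison, with 2 at an unadjusted p under 0.05 in each of SH1 and SH3 against control, while DESeq2 called USP12 in SH1 against control and USP37 in both comparisons of SH3.

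All 6 cullin genes had a log2 fold change above 0 in SH1 against control, with a median of 1.28, but edgeR and DESeq2 called 0 of them and 0 had an unadjusted p under 0.05. In the other 7 libraries 3 were above 0 and 2 below, with a median of 0.26. In SH3 against control 4 of 6 were above 0, or 5 of 6 with the authors' scaling. CUL4A, the DDB1-binding scaffold, had 3.58, 3.7 and 3.96 FPKM in SH3, 4.84, 4.6 and 2.45 FPKM in SH1, and 4, 0.79 and 2.17 FPKM in control libraries, and the groups overlapped. CUL5 ranged between 0.34 and 2.25 FPKM and CUL3, the scaffold of BTB adaptors, between 0 and 0.69 FPKM, with 1 SH3 and 1 control library at 0. CUL9 was at or below 0.94 FPKM and listed at 0 in 4 of 9 libraries.

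The median log2 fold change in SH1 against control was 0.01 for 28 F-box, 0.12 for 30 RNF, -0.07 for 26 TRIM, 0.30 for 4 HERC and -0.07 for 4 UBR genes, and the TRIM and UBR medians turned positive with the authors' scaling. In the other 7 libraries these medians were 0.32 for F-box, 0.26 for RNF, 0.08 for TRIM, 0.0071 for HERC and -0.29 for UBR genes, which puts the TRIM median above 0 there too. TRIM37, a ligase of histone H2A, and TRIM26 led the TRIM genes. TRIM37 averaged 8.85 ± 1.37 FPKM in SH3, 7.03 ± 1.31 in SH1 and 8.69 ± 1.29 in control libraries, and TRIM26 8.01 ± 0.781, 8.15 ± 1.5 and 6.75 ± 1.5 FPKM in the same groups. FBXO41 averaged 6.76 ± 0.903 FPKM in SH3, 6.25 ± 0.739 in SH1 and 6.15 ± 0.67 in control libraries. HERC6 ranged between 2.32 and 4.82 FPKM and HERC3 between 0.49 and 1.88 FPKM, and the giant HERC1 and HERC2 were each at 0 in at least 1 library and at or below 2 FPKM elsewhere.

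Several well-known regulators were too unsteady between replicates for a statement. RNF40, which with RNF20 ubiquitinates histone H2B, had 0.96, 0.09 and 0 FPKM in SH3, 0.82, 0.76 and 0 FPKM in SH1, and was listed at 0 in all controls (edgeR adjusted p = 0.42 in SH1 against control). FBXL5, the iron-sensing receptor of IRP2, had 0, 0.69 and 1.57 FPKM in SH3, 0.72, 0 and 0 FPKM in SH1, and 3, 0 and 0.08 FPKM in controls. USP10, which acts on p53, had 2.8, 2.95 and 3.58 FPKM in SH3, 1.1, 0 and 0.66 FPKM in SH1, and 3.36, 1.68 and 0 FPKM in controls, so that SH3 was above SH1 but control spanned both. RNF4, a ligase of SUMO-modified proteins, ranged between 0 and 1.52 FPKM.

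The same unsteadiness marked single transcripts. Of the 468 transcripts, 218 (46.6%) were at 0 in a library and at 50 or more estimated counts in another library of the same group, against 44% of all transcripts. In genes with several listed transcripts the median size of the log2 fold change in SH1 against control was 0.41 for the 100 summed genes and 0.96 for their 356 tested transcripts. In SH3 against control it was 0.32 for sums and 0.88 for transcripts. Every listed transcript had been selected for a difference of at least 2-fold between SH1 1 and control 1. That selection favours large fold changes and zeros in single transcripts, also among all transcripts. In 86 genes listed transcripts went both ways and can cancel in the sum. The gap between sums and transcripts is therefore partly built in.

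UBR4, a giant ligase of the N-degron pathway, had 13 listed transcripts, all predicted, and a steady sum: 4.43, 3.79 and 4.35 FPKM in SH3, 3.91, 4.89 and 4.77 FPKM in SH1, and 3.77, 4.27 and 4.94 FPKM in control libraries. One transcript, XM_017000825, had 0.53, 0.72 and 0.46 FPKM in SH3, 0.54, 0.4 and 1.29 FPKM in SH1, and 0 FPKM in all controls. Its estimated counts in the controls all rounded to 0, though not all were exactly 0. With the controls set to 3 counts over the group, the transcript was at least 278-fold higher in SH1 (edgeR adjusted p = 0.0371) and at least 221-fold higher in SH3 (adjusted p = 0.0753) than in control. As for FBXO10, these bounds cover counting error only. XM_017000825 was the only 1 of 392 tested transcripts called in SH1 against control, 0.255%, against 0.131% of all 17495 transcripts, and in the average of both groups (adjusted p = 0.0423), against 0.12% of all. The call held in 6 of 19 alternatives in SH1 against control and in 6 of 18 in the average. In these 2 comparisons DESeq2 called 11 and 10 transcripts, against 2.6% and 2.53% of all, and limma 0 in each, against 0.223% and 0.171%. In SH3 against control and in SH3 against SH1 edgeR called 0 of 392 transcripts, against 0.0286% and 0.0972% of all, with 24 and 22 at an unadjusted p under 0.05 (5.87% and 6.25% of all). DESeq2 called 11 and 8 there, against 2.38% and 2.28% of all, and limma 0 and 1 (NM_001033024 of FBXO7), against 0.0857% and 0.234%. Other transcripts of UBR4 were absent or present by group in the same way without a call: XM_017000822 was at least 257-fold higher in SH3 than in control, and XM_011541113 at least 171-fold higher in SH1.

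Single transcripts of USP22 and CUL4A also differed between groups, without a call by edgeR. Whether reads shared between transcripts of a gene lie behind such values was not tested. NM_015276 of USP22 had 43.19, 47.53 and 33.8 FPKM in SH3, 66.34, 60.11 and 85.7 FPKM in SH1, and 31.19, 60.37 and 37.38 FPKM in control libraries. Its predicted partner XM_005256575 had 32.46, 31.08 and 43.85 FPKM in SH3, 23.95, 26.12 and 6.34 FPKM in SH1, and 53.18, 25.84 and 35.48 FPKM in control libraries. The high libraries of 1 transcript were the low libraries of the other, with log2 fold changes of 0.61 ± 0.26 and -1.12 ± 0.48 in SH1 against control (edgeR adjusted p = 0.634 and 0.631). NM_001354942 of CUL4A was listed at 0 in all controls and had 1.17, 1.06 and 1.03 FPKM in SH3 and 1.12, 0.25 and 1.3 FPKM in SH1, at least 121-fold and 95.9-fold higher than control (adjusted p = 0.316 and 0.203).

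**Figure D4:**
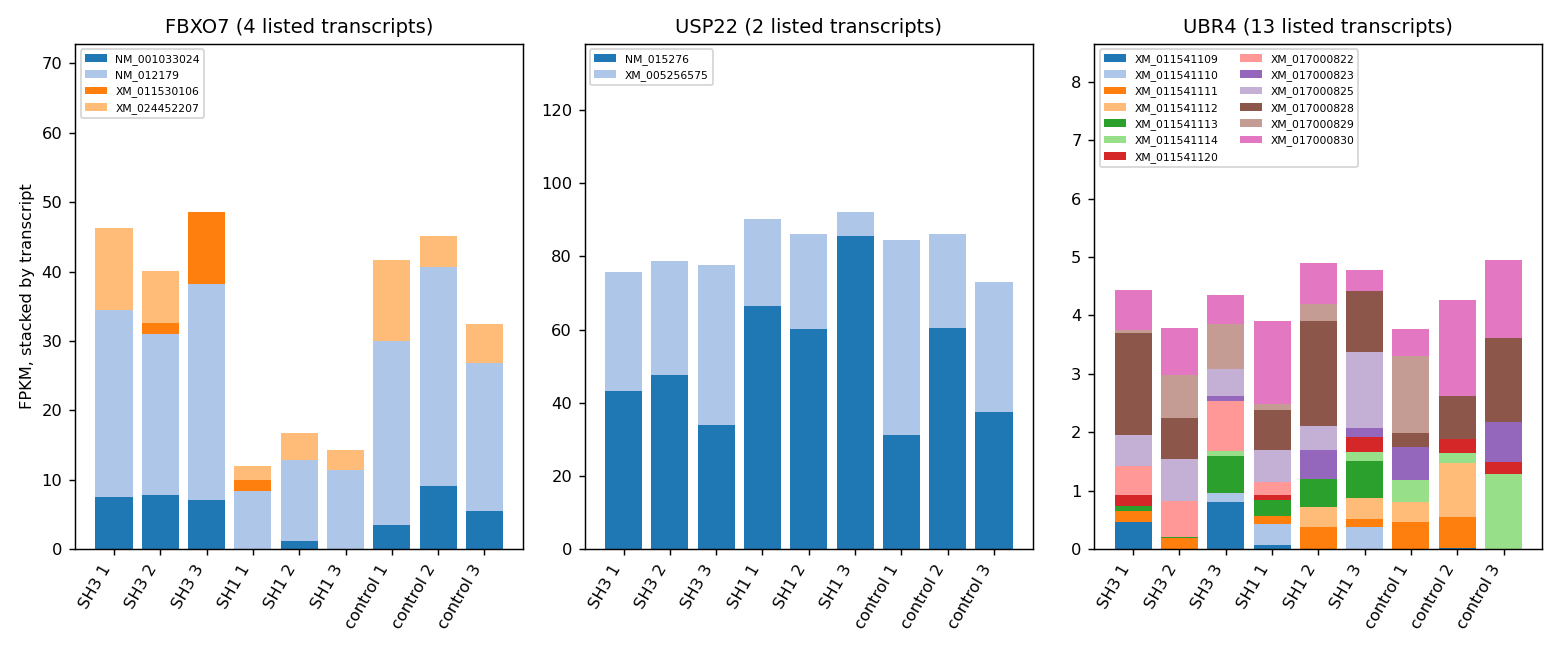
FPKM of the listed transcripts of FBXO7, USP22 and UBR4 in each of 9 libraries, stacked (SH3, SH1 and control from left to right). The FBXO7 stack is low in the 3 SH1 libraries, whereas the stacks of USP22 and UBR4 keep their height while their parts change.

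The remaining ubiquitin system was read from 10 lists of its other genes. OTUB2, a deubiquitinase of the OTU family, rose in SH1 with 2.88, 2.48 and 2.54 FPKM in SH3, 5.72, 5.44 and 5.36 FPKM in SH1, and 2.76, 2.3 and 2.08 FPKM in control libraries (log2 fold change of 1.05 ± 0.20 in SH1 against control, edgeR adjusted p = 0.0426). It was 1 of 18 tested genes among other deubiquitinases, against 2.14% of all genes called in SH1 against control. DESeq2 and limma called it too, but it did not pass in the other 7 libraries (edgeR adjusted p = 0.124) nor when any 1 library was left out (adjusted p between 0.0648 and 0.157), and passed in 8 of 21 alternatives in all. NEDD4L, a HECT ligase of ion channels in the kidney, was lower in SH3 than in SH1, with 2.89, 2.54 and 2.43 FPKM in SH3, 5.3, 5.27 and 4.57 FPKM in SH1, and 3.97, 3.37 and 3.02 FPKM in control libraries (-0.88 ± 0.16, adjusted p = 0.0463). DESeq2 called it as well, whereas it did not pass with limma (adjusted p = 0.0916), in the other 7 libraries (edgeR adjusted p = 0.107) or when any 1 library was left out (adjusted p between 0.0525 and 0.191), and passed in 4 of 21 alternatives. UBE3B, another HECT ligase, fell in the average of both groups by 2.33 ± 0.38 on the log2 scale (adjusted p = 0.0316). Its summed estimated count was 40.0, 35.0 and 39.0 in SH3, 90.5, 46.6 and 48.0 in SH1, and 154, 327 and 175 in control libraries, whereas its summed FPKM overlapped between SH1 and control, at 2.23 ± 0.765 FPKM in SH1 and 2.58 ± 1.22 FPKM in control libraries. The UBE3B call rests on predicted transcripts: with curated transcripts alone the average difference was 0.75, of the opposite sign (edgeR adjusted p = 0.933). It did not pass with limma (adjusted p = 0.539) or in the other 7 libraries (edgeR adjusted p = 0.0503), and passed in 9 of 20 alternatives in all.

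HLTF, a RING ligase and DNA translocase, was listed at 0 in all controls and had 0.58, 0.94 and 0.55 FPKM in SH3 and 2.88, 1.58 and 0.49 FPKM in SH1. It was at least 154-fold higher in SH1 than in control (edgeR adjusted p = 0.0159), and it was called in the average of both groups (adjusted p = 0.0287). The call in SH1 against control ended with limma (adjusted p = 0.0803) and in the other 7 libraries (edgeR adjusted p = 0.07). With edgeR it also ended without SH1 2 (adjusted p = 0.0678) and without SH3 1 (adjusted p = 0.0513). The fit of the compared groups (edgeR adjusted p = 0.1145) and the replicate block (edgeR adjusted p = 0.0847) ended it too. The call held in 14 of 20 alternatives, and that in the average held in 8 of 19. HLTF was 1 of 34 tested genes among other RING ligases, against 2.14% of all genes in SH1 against control and 1.11% in the average. Among other HECT ligases NEDD4L was 1 of 16 in SH3 against SH1, against 1.36% of all genes, and UBE3B 1 of 16 in the average. The edgeR test called 0 genes in every comparison among 5 activating enzymes, 18 conjugating enzymes, 28 cullin adaptors, 9 NEDD8 and COP9 genes, 10 proteasome genes, 2 ubiquitin genes and 7 SUMO genes tested. Of these 79 genes, 6 had an unadjusted p under 0.05 in SH3 against control, 6 in SH1 against control, 6 in their average and 3 in SH3 against SH1, where 8.39%, 11.5%, 10.2% and 10.8% of all genes did. The limma test called 0 in every comparison. DESeq2, which tested 85 genes of these lists, called 1 in SH3 against control, the cullin exchange factor CAND2, against 3.64% of all genes. It called 3 in SH1 against control (CAND2 and the cullin adaptors KBTBD4 and KLHL2), against 6.81% of all genes, 5 in the average, against 5.15%, and 2 in SH3 against SH1, against 6.26%.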

How the data were processed

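RNA-seq of 9 Caki-1 libraries was deposited as a table of 20909 transcripts with 4 values per library, named in the file headers. The deposited estimated counts (65.1% not whole, tolerance 0.001) were rounded for the tests. The deposited FPKM describes levels, the deposited TPM the share of a library that is listed, and the authors' scaling factors were read from their deposited normalized read counts (unit: signal). The submitters' processing notes name the mouse build mm10; the aligner and counter are not given in the sources used here. All 140 gene numbers matched human RefSeq, so the values were read as human. Strand use in counting is not stated.

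Estimated counts were summed per gene, and the sums, or the counts of single transcripts, were then rounded. They were tested with edgeR 4.0.16 in R 4.3.3, with TMM, filterByExpr at a minimum count of 10 and robust quasi-likelihood. Each test used 1 fit of all 9 libraries with group means. P-values were adjusted by Benjamini-Hochberg over all 6398 genes or, separately, all 17495 transcripts tested, and the threshold was 0.05. The SE is the log2 fold change over the square root of F. The procedure was tested on simulated data. Named genes are those called, up to 5 each way per comparison with the smallest p among genes of at least 1 FPKM whose libraries do not overlap, the 2 highest per family, and a set of well-known names, of which some are not reported here; RNF7, USP37, USP13, CAND2, KBTBD4, KLHL2, the symbols named for doubtful function and the panels plotted were picked with their values in view. The members and lists were chosen with earlier results of these data known. Alternatives were DESeq2 1.42.0, limma 3.58.1 on log2(FPKM + 1), other scalings and filters, a fit of the compared groups, a replicate block, left-out libraries, and curated or unduplicated transcripts. A group at 0 was set to 3 counts. Columns not used numbered 0.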

Additional observations from a re-analysis of the deposited data

Results flagged for a closer look

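FBXO7 and FBXO32 were marked because the 2 knockdown groups differed in a direct test. FBXO7 was higher in SH3 than in SH1, by 1.69 on the log2 scale, and FBXO32 was lower, by -1.31 on the log2 scale (edgeR adjusted p = 0.00799 and 0.0455, 3 libraries each, without overlap between SH3 and SH1 in either gene). In both genes SH3 overlapped with control and SH1 did not.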

How the results depend on the processing

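The 33 fold changes of named genes gave 683 values under the alternatives. Of these, 622 kept their direction and side of the threshold, 56 no longer passed it, 5 newly passed it and 0 changed sign. Most of the 33 had not been called, so most of the 622 kept their side by not passing again. Only called results could lose the threshold, so all 56 losses fell on FBXO7, FBXO10, FBXO32 and the UBR4 transcript. Many of the 33 were picked for libraries without overlap, which favours a steady sign. FBXO7 passed in 19 of 21 alternatives in SH1 against control and in 20 of 21 in SH3 against SH1; FBXO10 passed in 7 of 20 and FBXO32, in SH3 against SH1, in 6 of 21. Counts of called genes also changed. In SH1 against control (2 called) DESeq2 called 5, limma 1, the fit of the compared groups 0, the other 7 libraries 0, curated transcripts 1, the authors' scaling 3 (chosen after seeing the data), and each left-out library 1. In SH3 against control and in the average (0 called) DESeq2 called 2 and 3. In SH3 against SH1 (2 called) DESeq2 called 4, the other 7 libraries 0, and no TMM, no filter, limma, the compared groups and curated transcripts 1 each; leaving out a library gave 1 to 2. Of transcripts, DESeq2 called 11 in SH1 against control (1 called), 11 in SH3 against control (0 called), 10 in the average (1 called) and 8 in SH3 against SH1 (0 called), limma 0, 0, 0 and 1 in the same order, and the compared groups, the other 7 libraries and each left-out library 0 in SH1 against control, with 0 also in the average for the last 2. With the replicate number as a block, 1 gene was called in SH1 against control, 1 in SH3 against SH1 and 0 transcripts in SH1 against control and in the average. Deviations of libraries of the same number correlated weakly, between -0.065 and 0.076. Between SH1 and SH3 these correlations were 0.034 to 0.076, against -0.056 to -0.0064 for different numbers. Between control and the knockdown groups they were -0.065 to 0.020, against -0.046 to 0.095 for different numbers. Whether the numbers pair libraries cannot be settled from so few. The fit of the compared groups was not run for the average, which uses all 9 libraries. The causes were not tested. Between 127 and 196 of the 468 transcripts were at 0 in a library, which limits single transcripts most.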
